A study of Mus musculus with 6 samples.

Results

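The cytoskeleton genes described here are 10 genes of the mouse liver transcriptome. They encode the cytoplasmic actins (Actb, Actg1), the beta-thymosins (Tmsb4x, Tmsb10), the actin-binding proteins profilin 1 (Pfn1) and cofilin 1 (Cfl1), a subunit of the actin-nucleating Arp2/3 complex (Arpc2), and tubulins (Tuba1a, Tuba1b, Tubb2a). They were chosen by gene name with earlier results of these libraries in view, and all 10 were found among the 56534 genes or loci of the deposited matrix. Their differences between the groups are therefore given as a description, and the counts of them that passed in the fit over all genes support nothing. The study compared livers of CD36-/- animals (LKO, hepatocyte-specific knockout of the fatty acid transporter CD36, n = 3 libraries) with livers of wild type animals (CON, n = 3 libraries). All animals were C57BL/6 mice on a high-fat diet with 60% of its energy from fat for 16 weeks. Neither the promoter that drove the deletion nor the age of the animals is stated in the labels. No label ties a library to an animal, so the spread within a group, and any p-value built on it, may be partly technical.

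Actin monomers assemble into filaments that carry the cell cortex and, in hepatocytes, the microvilli of the bile canaliculus. Beta-thymosins hold monomers in reserve, profilin feeds them to growing ends, cofilin severs old filaments, and the Arp2/3 complex starts branches. Alpha- and beta-tubulin pair into the subunits of microtubules, along which hepatocytes move secretory vesicles and organelles. Cytoplasmic actin genes are targets of the transcription factor SRF, whose coactivators are held inactive by free actin monomers.

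RefSeq promoter windows (build GRCm38.p6, 250 bases before to 50 after a transcription start) were matched by symbol for 9 of the 10 genes, in 11 windows, and Actb had no entry. The 150 bases before the start are shown for 4 genes, those of the actin and the tubulin that varied most between the libraries and those of the closely related alpha-tubulin pair. Capitals mark the CArG box, the site bound by SRF, in the Actg1 promoter, and the letters TATAAA or TATAA in the Tubb2a and Tuba1a promoters.
Actg1, chr11:120348496-120348645, minus strand: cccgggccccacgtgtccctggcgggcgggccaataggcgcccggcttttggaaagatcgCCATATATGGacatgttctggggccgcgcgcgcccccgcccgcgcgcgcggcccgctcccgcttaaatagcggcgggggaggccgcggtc
Tubb2a, chr13:34078009-34078158, minus strand: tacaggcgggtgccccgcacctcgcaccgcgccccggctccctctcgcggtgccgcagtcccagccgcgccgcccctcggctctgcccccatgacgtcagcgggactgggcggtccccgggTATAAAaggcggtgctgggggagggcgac
Tuba1a, chr15:98953502-98953651, minus strand: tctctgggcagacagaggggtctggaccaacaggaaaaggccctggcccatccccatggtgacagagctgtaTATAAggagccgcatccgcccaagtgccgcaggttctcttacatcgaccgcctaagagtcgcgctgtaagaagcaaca
Tuba1b, chr15:98934391-98934540, minus strand: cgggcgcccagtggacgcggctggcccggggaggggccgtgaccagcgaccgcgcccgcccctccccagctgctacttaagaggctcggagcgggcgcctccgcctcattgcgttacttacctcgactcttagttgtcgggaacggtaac

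Each motif was searched on both strands of the whole 300-base windows. The CArG box, whose letters read the same way on either strand, lay 90 to 81 bases before the Actg1 start and in no other of the 11 windows. It was found in 1.63% of all 32851 windows. TATAAA lay 29 to 24 bases before the Tubb2a start, in 1 of the 11 windows, against 13.6% of all windows. The shorter TATAA, which every TATAAA contains, was found for Tubb2a, Tuba1a, Tmsb10 and Cfl1, and in 24.9% of all windows. The GC content of the window was 77.3% for Actg1, 67.0% for Tubb2a, 59.0% for Tuba1a and 72.7% for Tuba1b, against a median of 52.7% over all windows. A match of letters is a description of the window and says nothing of a factor bound there. The submitters' processing notes give the build mm9 for the FPKM, and no coordinate of 1 build was joined to the other.

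Coding sequences of the GENCODE M21 principal transcripts were compared for the pairs in which reads can be shared. Tuba1a and Tuba1b were identical at 98.3% of 1356 aligned bases, and Actb and Actg1 at 88.7% of 1128. Tmsb4x and Tmsb10 were identical at 71.5% of 137 aligned positions. The split of reads between Tuba1a and Tuba1b, and to a smaller extent between the actins, is therefore uncertain, since the sources used here do not give the counting rules. All of these genes can also share reads with processed pseudogenes.

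Expression is given as FPKM, fragments scaled to gene length and to the number mapped, with no read counts, so sequencing depth is unknown. Between 10614 and 11311 genes reached an FPKM of 1 in a library. Cd36, the deleted gene, was at 2.73, 3.70 and 10.22 FPKM in LKO libraries 1, 2 and 3, against 61.95, 26.49 and 19.66 FPKM in CON libraries 1, 2 and 3 (exact two-sided permutation test p = 0.1, the smallest that 3 against 3 libraries allow). LKO 3, with the highest Cd36 of the LKO libraries, also stood apart in another way. The Spearman correlation between gene length and a library's deviations from the mean of all 6 libraries was -0.33 in LKO 1, -0.30 in LKO 2 and 0.21 in LKO 3. It was 0.27, 0.10 and 0.29 in CON 1, CON 2 and CON 3. The 10 cytoskeleton genes are short, with deposited lengths of 690 to 2354 bases and a median of 1773, against a median of 3010 for all genes tested.

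Beta-actin and gamma-actin, which build the filaments of non-muscle cells, had log2 fold changes of opposite sign, with separate groups for Actb and overlapping groups for Actg1. Actb (ENSMUSG00000029580) was at 471.03, 466.31 and 375.79 FPKM in LKO libraries 1, 2 and 3, against 231.77, 242.36 and 239.96 FPKM in CON libraries 1, 2 and 3. Every LKO library lay above every CON library, with LKO 3 the closest to them. Its mean was 438 ± 53.7 FPKM in LKO and 238 ± 5.55 FPKM in CON (SD, n = 3 each). The log2 fold change was 0.87 (SE 0.18) on the log2(FPKM + 1) scale used throughout. The CON spread was 2.33% of the mean, and the LKO spread 12.3%.

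Actg1 (ENSMUSG00000062825) was at 68.79, 33.45 and 160.93 FPKM in the LKO libraries, against 224.13, 90.76 and 99.22 FPKM in the CON libraries. The groups overlapped, since LKO 3 lay above CON 2 and CON 3, and CON 1 was the highest of all libraries. Its mean was 87.7 ± 65.8 FPKM in LKO and 138 ± 74.7 FPKM in CON (SD, n = 3 each), and the log2 fold change was -0.80 (SE 0.57). The SD was 75.0% of the mean in LKO and 54.1% in CON, the largest relative spread of the 10 genes in either group. The log2 fold change was -0.26 without LKO 2, -0.39 without CON 1 and -1.38 without LKO 3.

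The summed FPKM of both actins differed less in relative terms than either gene alone. The sum was 539.82, 499.76 and 536.72 FPKM in the LKO libraries, against 455.90, 333.12 and 339.18 FPKM in the CON libraries, a ratio of the means of 1.40. As a share of all FPKM in the library, the sum was 0.0458%, 0.0393% and 0.0559% in LKO and 0.0548%, 0.0359% and 0.0347% in CON. On that scale the groups overlapped. That total includes the Mup genes, which encode major urinary proteins and made up 29.4%, 28.9% and 23.9% of all FPKM in the LKO libraries, against 6.22%, 15.6% and 22.1% in the CON libraries.

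**Figure D1:**
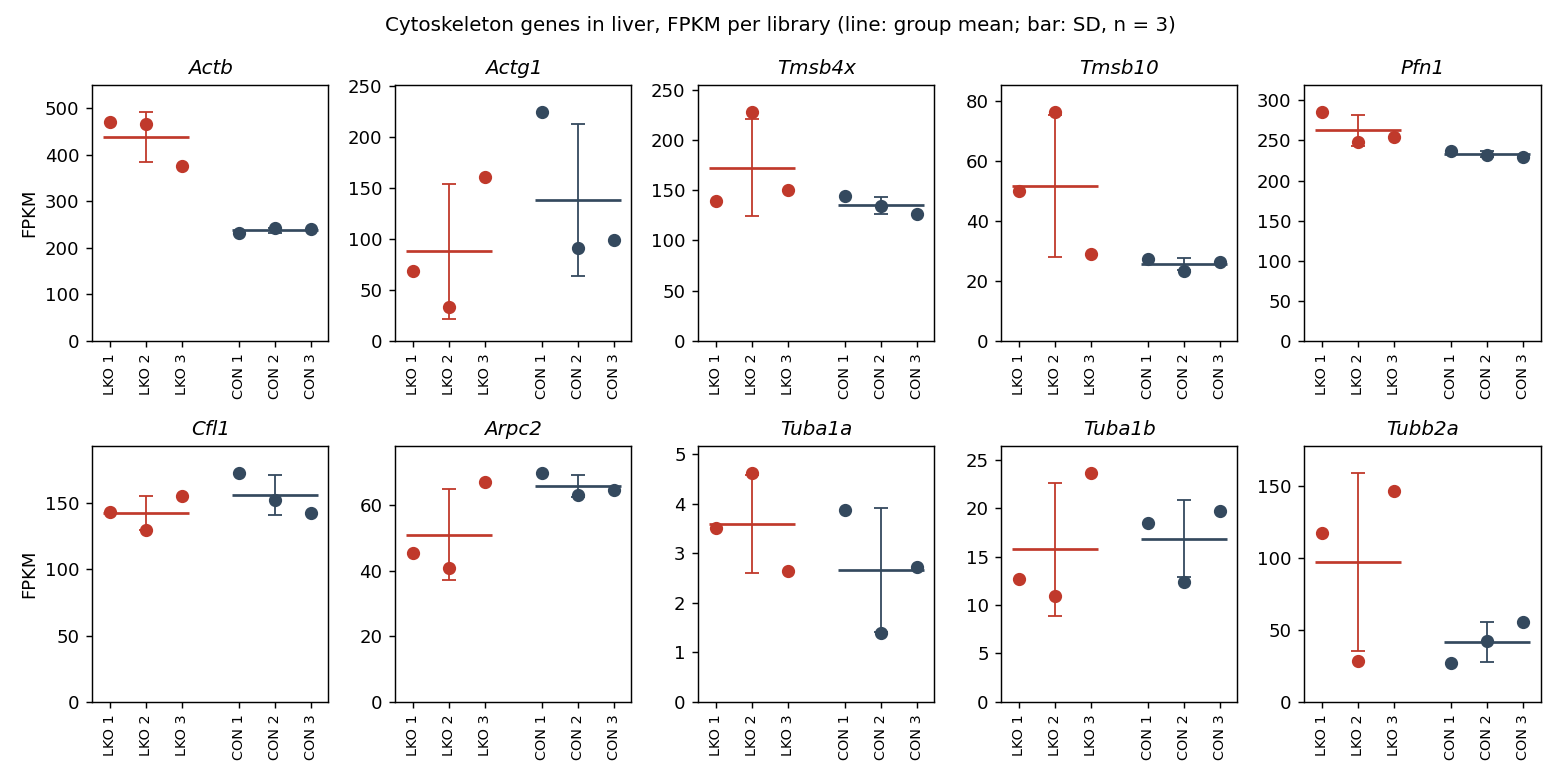
FPKM of the 10 cytoskeleton genes (y axis, from 0, a separate scale for each gene) in the 3 LKO libraries (red, left) and the 3 CON libraries (dark grey, right). Horizontal lines are group means and bars are SD (n = 3). Actb, Tmsb10 and Pfn1 have no overlap between the groups, and Actg1 and Tubb2a spread widely within both.

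Both beta-thymosins, small proteins that bind actin monomers, were highest in LKO 2. Tmsb10 (ENSMUSG00000079523) was at 50.10, 76.25 and 28.86 FPKM in the LKO libraries, against 27.48, 23.32 and 26.22 FPKM in the CON libraries. The groups did not overlap, but LKO 3 exceeded CON 1 by little. Its mean was 51.7 ± 23.7 FPKM in LKO and 25.7 ± 2.13 FPKM in CON (SD, n = 3 each). The log2 fold change was 0.88 (SE 0.32), and 0.55 without LKO 2. Tmsb4x (ENSMUSG00000049775), the X-linked and more abundant thymosin gene, was at 139.06, 227.53 and 150.71 FPKM in the LKO libraries, against 143.83, 134.39 and 126.40 FPKM in the CON libraries. LKO 1 lay inside the CON range, and LKO 2 was far above it, while under median-ratio scaling, which sets the median gene of each library level, every LKO library lay above every CON library. Its log2 fold change of 0.32 (SE 0.22) was 0.10 without LKO 2.

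Among the other actin-binding genes, profilin and cofilin varied least within LKO, with an SD of 7.49% and 8.95% of the mean. Pfn1 (ENSMUSG00000018293) was at 285.04, 248.41 and 254.29 FPKM in the LKO libraries, against 236.96, 232.48 and 229.55 FPKM in the CON libraries. The groups did not overlap, and the ratio of the means was 1.13, with a log2 fold change of 0.17 (SE 0.16). Cfl1 (ENSMUSG00000056201) was at 143.07, 130.11 and 155.71 FPKM in the LKO libraries, against 172.79, 152.72 and 142.85 FPKM in the CON libraries. The groups overlapped as deposited, with a log2 fold change of -0.13 (SE 0.17), and under median-ratio scaling every LKO library lay above every CON library. Arpc2 (ENSMUSG00000006304), a core subunit of the branching complex, was at 45.29, 40.77 and 66.92 FPKM in the LKO libraries, against 69.78, 63.21 and 64.66 FPKM in the CON libraries. LKO 1 and LKO 2 lay below all CON libraries and LKO 3 lay within their range, for a log2 fold change of -0.39 (SE 0.21). The value was -0.60 without LKO 3 and -0.25 without LKO 2.

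Of the tubulins, Tubb2a carried the largest difference of the 10 genes and also a wide spread. Tubb2a (ENSMUSG00000058672), a beta-tubulin, was at 117.64, 28.09 and 146.56 FPKM in the LKO libraries, against 27.24, 42.20 and 55.42 FPKM in the CON libraries. LKO 1 and LKO 3 were above every CON library, and LKO 2 lay near the lowest of them. Its mean was 97.4 ± 61.8 FPKM in LKO and 41.6 ± 14.1 FPKM in CON (SD, n = 3 each), and the log2 fold change was 0.96 (SE 0.59). The value was 1.69 without LKO 2 and 0.52 without LKO 3.

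The alpha-tubulin gene Tuba1b (ENSMUSG00000023004) was at 12.75, 10.93 and 23.66 FPKM in the LKO libraries, against 18.53, 12.34 and 19.79 FPKM in the CON libraries. The groups overlapped, with LKO 3 the highest library, and the log2 fold change of -0.14 (SE 0.31) turned to 0.07 without LKO 2. Tuba1a (ENSMUSG00000072235), the alpha-tubulin typical of neurons, was the lowest of the 10 genes, at 3.52, 4.62 and 2.64 FPKM in the LKO libraries, against 3.88, 1.38 and 2.73 FPKM in the CON libraries. The groups overlapped, with a log2 fold change of 0.36 (SE 0.30) that the added constant of 1 understates at this level. With a constant of 0.1 it was 0.50. It was 0.08 without CON 2.

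Ratios of related genes within 1 library do not depend on how the library is scaled. The ratio of Actg1 to Actb was 0.146, 0.0717 and 0.428 in LKO 1, LKO 2 and LKO 3, against 0.967, 0.374 and 0.413 in CON 1, CON 2 and CON 3. LKO 3 thus lay between CON 3 and CON 1, and LKO 1 and LKO 2 were below every CON library. The log2 ratio was -1.69 in LKO relative to CON, and -1.09 to -2.38 when each library was left out in turn. The ratio of Tmsb10 to Tmsb4x was 0.360, 0.335 and 0.191 in the LKO libraries, against 0.191, 0.174 and 0.207 in the CON libraries, and again LKO 3 lay within the CON range. The ratio of Tuba1b to Tuba1a was 3.62, 2.37 and 8.96 in the LKO libraries, against 4.78, 8.94 and 7.25 in the CON libraries. LKO 1 and LKO 2 had the lowest values of the 6, and LKO 3 the highest by a narrow margin. This ratio is uncertain, since Tuba1a was at 1.38 to 4.62 FPKM and its coding sequence is 98.3% identical to that of Tuba1b. In all 3 ratios LKO 3 was closer to the CON libraries than to LKO 1 and LKO 2, as it was in its trend with gene length. The deposited lengths were 1952 and 1920 bases for Actg1 and Actb, 690 and 864 for Tmsb10 and Tmsb4x, and 1743 and 1803 for Tuba1b and Tuba1a. The part of that trend in these ratios was not tested.

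**Figure D2:**
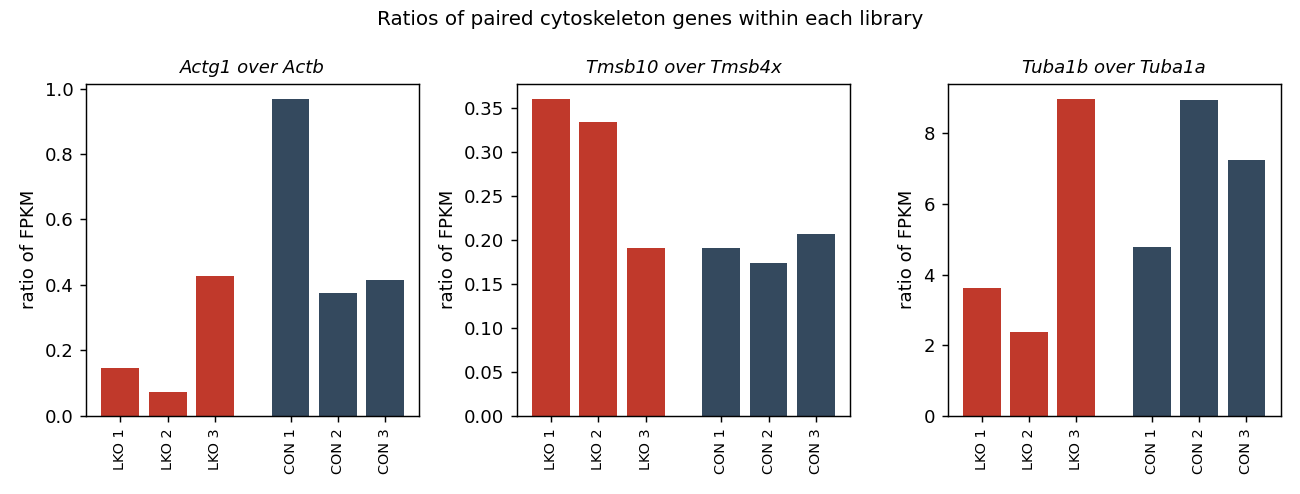
Ratio of the FPKM of paired cytoskeleton genes (y axis, from 0) in each of the 3 LKO libraries (red, left) and the 3 CON libraries (dark grey, right). In each pair LKO 1 and LKO 2 lie outside the CON range and LKO 3, at 0.428, 0.191 and 8.96, lies within or at the edge of the CON range. The split of reads between Tuba1b and Tuba1a is uncertain.

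FPKM are per length, so levels can be ordered between genes. In LKO livers the order of mean levels was Actb, Pfn1, Tmsb4x, Cfl1, Tubb2a, Actg1, Tmsb10, Arpc2, Tuba1b and Tuba1a, from 438 to 3.59 FPKM. In CON livers it was Actb, Pfn1, Cfl1, Actg1, Tmsb4x, Arpc2, Tubb2a, Tmsb10, Tuba1b and Tuba1a, from 238 to 2.66 FPKM. In LKO livers Actb lay above Pfn1 in every library, while in CON livers the ranges of these genes overlapped. The ranges also overlapped between neighbours from Tmsb4x down to Arpc2 in LKO livers. In CON livers they overlapped among Cfl1, Actg1 and Tmsb4x and between Tubb2a and Tmsb10. Tuba1b and Tuba1a did not overlap their neighbours in either group. By mean FPKM over the 6 libraries, Actb ranked above 97.0% of the genes tested and Tuba1a above 28.6%.

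Over the 11104 genes whose mean FPKM reached 1, which include all 10 cytoskeleton genes, limma at a Benjamini-Hochberg adjusted p under 0.05 called 0 of the 10, against 0.00901% of all genes. Every LKO library was above every CON library for 3 of the 10 (3.92% of all genes), and for 0 of the 10 it was below (24.3% of all genes). Under median-ratio scaling these counts were 5 of 10 above (12.3% of all genes), with Tmsb4x and Cfl1 added, and 0 of 10 below (11.1%). Nothing is read from these counts, since the genes were chosen with this contrast known. The median log2 fold change of the 10 was 0.24, beside -0.23 for all genes tested, and 6 of the 10 were above 0, beside 28.4% of all genes. Under median-ratio scaling the medians were 0.53 for the 10 and 0.01 for all genes, with 8 of the 10 and 51.1% of all genes above 0. With the trend of each library with gene length removed they were 0.29 and 0.001.

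The sign of 3 genes depended on the scale of the libraries. Cfl1 was at 0.17 and Tuba1b at 0.14 under median-ratio scaling, and Pfn1 was at -0.14 when every library was scaled to the same sum of FPKM. Actb, Tmsb4x, Tmsb10, Tuba1a and Tubb2a were above 0, and Actg1 and Arpc2 below 0, as deposited and under median-ratio scaling, equal sums, quantile normalization and removal of the length trend. Equal sums brought Tmsb4x to 0.01, Actb to 0.56 and Tmsb10 to 0.58. Removal of the length trend moved Actb to 1.04 and Tmsb10, the shortest of the 10, to 0.73. Without LKO 3, limma called 3 of the 10, Actb, Tmsb10 and Arpc2, beside 511 higher and 2115 lower of all 11104 genes. In that fit the group cannot be told apart from the trend with gene length.

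**Figure D3:**
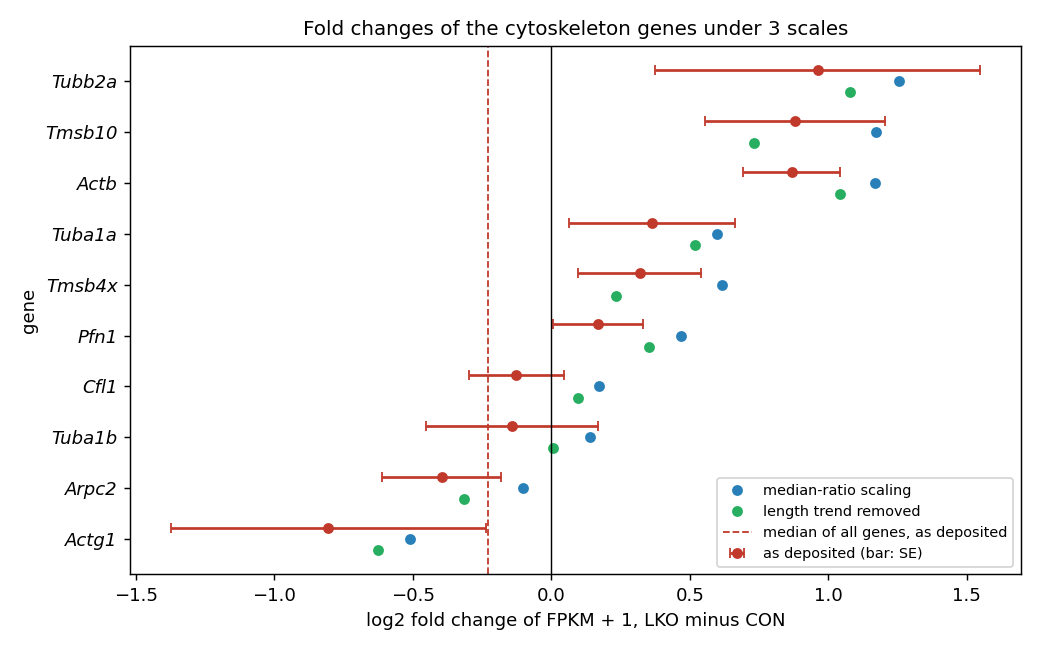
Log2 fold change of FPKM + 1, LKO minus CON (x axis), of the 10 cytoskeleton genes (y axis) as deposited (red, bar: SE), under median-ratio scaling (blue) and with the length trend removed (green). The dashed line is the median of all genes as deposited, -0.23. Cfl1 and Tuba1b lie on opposite sides of 0 on different scales.

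Genes whose pattern over the 6 libraries was most like that of Actb were found by Pearson's r of log2(FPKM + 1), among 11104 genes tested. They included Prrc2a (0.99), Ppp1r12c (0.99), the prefoldin subunit gene Pfdn2 (0.98) and the ribonuclease H2 subunit gene Rnaseh2a (0.98). The libraries fall into 2 groups, and 28 genes other than the 10 reached an r over 0.95. Whether these values come from a step between the groups or from differences within them was not tested. Ppp1r12c, a regulatory subunit of myosin phosphatase, was at 13.72, 13.44 and 11.57 FPKM in the LKO libraries, against 8.81, 9.83 and 9.09 FPKM in the CON libraries. No other of the 10 cytoskeleton genes exceeded 0.85 (Tmsb10).

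The genes around the 10 were read from 14 lists of related cytoskeleton genes, with 140 genes in the matrix and 121 tested. None of the 121 passed in limma over all genes (smallest adjusted p = 0.163). At an unadjusted p under 0.05, 7 (5.79%) were higher and 21 (17.4%) lower in LKO, beside 3.25% and 18.9% of all genes tested. Under median-ratio scaling the counts were 12 higher and 4 lower, beside 10.2% and 7.96% of all genes. The list median was -0.22 over the 121 genes, close to the -0.23 of all genes. Without LKO 3, 39 of the 121 were called, beside 511 higher and 2115 lower of all 11104 genes. In that fit group and length trend coincide. In the lists below, given genes are those with the smallest p of each list, adjusted p-values are from limma over all genes, and none passed.

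Of the other actins, the smooth muscle actin gene Acta2 was at 4.35, 2.67 and 1.19 FPKM in the LKO libraries, against 1.69, 0.75 and 2.75 FPKM in the CON libraries, with overlap (log2 fold change 0.43, adjusted p = 0.493). The dynactin actin-related genes Actr1b and Actr1a had log2 fold changes of -0.57 and -0.43, and the striated muscle actin genes Acta1 and Actc1 were at or below 0.14 FPKM in every library. Some of the other 8 Arp2/3 complex genes on the list encode alternative forms of 1 subunit. The median of the 8 was -0.29, beside -0.23 for all genes, and 2 were above 0, beside 28.4% of all genes. Under median-ratio scaling their median was -0.003, beside 0.01 for all genes, with 4 of the 8 above 0. Arpc5 was at 24.14, 18.61 and 30.81 FPKM in the LKO libraries, against 41.65, 34.86 and 32.88 FPKM in the CON libraries, with no overlap (-0.57, adjusted p = 0.205). Arpc1a and Actr2 had log2 fold changes of -0.34 and -0.39. As with Arpc2, the values of Arpc5 were lower in LKO 1 and LKO 2 than in LKO 3.

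Genes of monomer binding and severing had a median of -0.41 over 11 tested, and their smallest p belonged to the cyclase-associated protein gene Cap1 (-0.66, adjusted p = 0.201) and the cofilin phosphatase genes Ssh3 (-0.41) and Ssh1 (-0.56). The largest difference in this list, named after its values were seen, was that of the cofilin phosphatase gene Ssh2. It was at 10.56, 1.5 and 91.84 FPKM in the LKO libraries, against 34.45, 102.03 and 137.79 FPKM in the CON libraries (-2.52, SE 1.18). Libraries of both groups spread widely for it, and the groups overlapped.

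Genes of filament crosslinking and adhesion lay below 0 for 17 of 17 tested, with a median of -0.39, while 28.4% of all genes lay above 0. Under median-ratio scaling 7 of the 17 were above 0, beside 51.1% of all genes, and the median was -0.14. As deposited, every LKO library was below every CON library for 6 of the 17, beside 24.3% of all genes. Rdx, which encodes radixin, the linker of actin to the bile canalicular membrane, was at 16.19, 14.87 and 26.49 FPKM in the LKO libraries, against 55.18, 38.51 and 41.74 FPKM in the CON libraries. The groups did not overlap, for a log2 fold change of -1.22 (SE 0.26, adjusted p = 0.163). The actin-bundling gene Pls3 (-1.09, adjusted p = 0.175) and the adhesion gene Lasp1 (-0.94, adjusted p = 0.187) also had no overlap. The capping genes Capza2 and Tmod3 were at -0.65 and -0.50, while Capg, a capping gene of macrophages among other cells, was at 0.49 (adjusted p = 0.215).

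Tropomyosin and myosin genes had a median of -0.09 over 15 tested, led by p by Mylk (-0.72), Tpm3 (-0.98) and Cald1 (-0.77). Srf itself was at 3.85, 3.03 and 4.24 FPKM in the LKO libraries, against 4.95, 4.42 and 4.37 FPKM in the CON libraries (-0.25, adjusted p = 0.397). The median of all genes was -0.23, and under median-ratio scaling Srf was at -0.01. The SRF coactivator genes Mrtfb and Mrtfa were at -0.52 and 0.12 as deposited.

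The other alpha- and beta-tubulin genes had 5 of 10 members tested, with a median of 0.11 and no unadjusted p under 0.05 as deposited. Under median-ratio scaling the median was 0.34, and 1 was higher at an unadjusted p under 0.05 (limma), beside 10.2% of all genes. Tubb4b was at 93.40, 63.92 and 134.60 FPKM in the LKO libraries, against 51.63, 76.19 and 91.62 FPKM in the CON libraries (0.38, adjusted p = 0.459). As for Tubb2a, LKO 3 was the highest and LKO 2 the lowest of the LKO libraries. Tuba4a and Tubb5 had log2 fold changes of 0.18 and 0.06. They were at 0.47 and 0.34 under median-ratio scaling, and turned to -0.13 and -0.22 under equal sums. The delta- and gamma-tubulin genes Tubd1 and Tubg1 were at -0.47 and -0.76.

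Actin and tubulin fold in the CCT chaperonin, to which prefoldin delivers them, and tubulin cofactors complete the dimer. Of the 8 CCT genes, 2 were above 0, beside 28.4% of all genes, and 7 were above the median of all genes. Under median-ratio scaling 7 of the 8 were above 0, beside 51.1% of all genes. Cct3 was at 95.81, 83.63 and 84.20 FPKM in the LKO libraries, against 52.39, 62.40 and 60.95 FPKM in the CON libraries (0.58, SE 0.16, adjusted p = 0.179). Its groups did not overlap, whereas Cct5 and Tcp1 had log2 fold changes of -0.36 and -0.19. The prefoldin and cofactor list, with a median length of 1164 bases, had a median of 0.13, beside -0.23 for all genes. As deposited, 11 of 11 were above the median of all genes. With the length trend removed the medians were 0.14 for the list and 0.001 for all genes. On that scale Vbp1 and Tbca, at -0.09 and -0.19, were below the median of all genes. Pfdn6 (0.56, adjusted p = 0.196), Pfdn2 (0.39, adjusted p = 0.207) and Tbcb (0.66, adjusted p = 0.212) had no overlap. Of the microtubule-associated and motor genes (median -0.18 over 13 tested), the dynein light chain genes Dynll2 and Dynll1 were at -0.73 and 0.94, and the dynactin gene Dctn1 at -0.39.

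**Figure D4:**
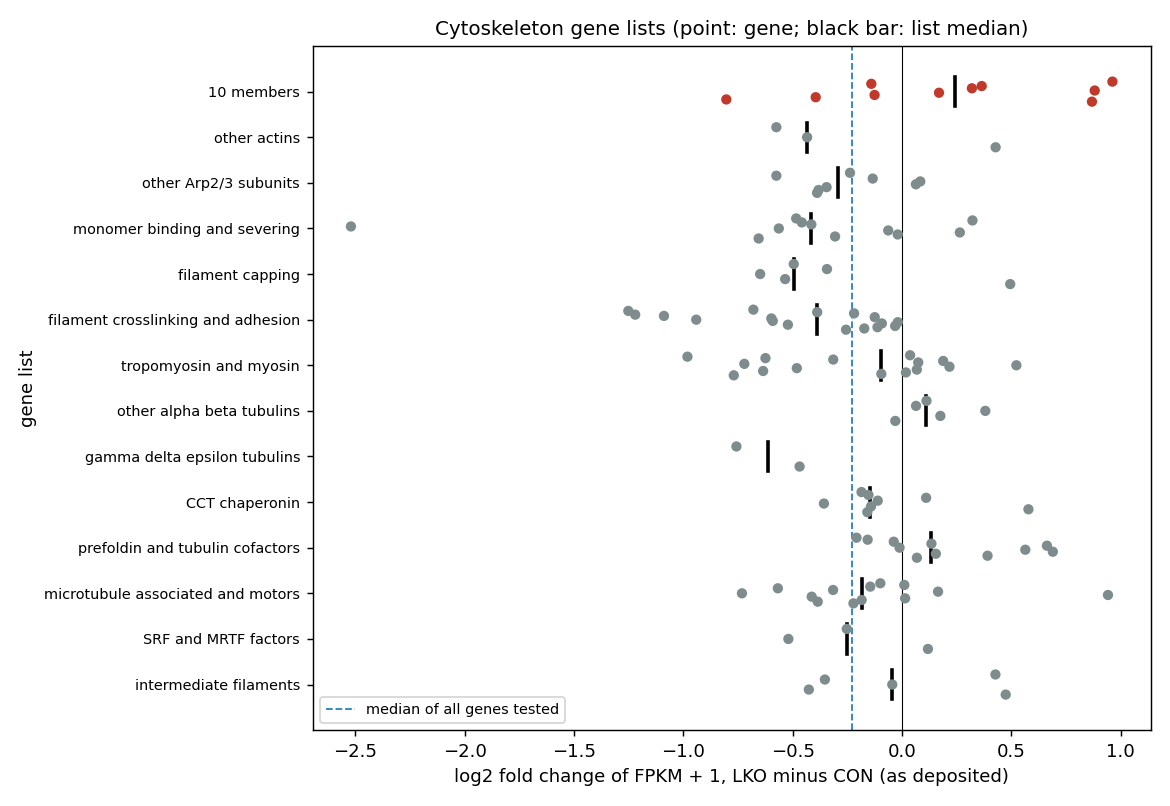
Log2 fold change of FPKM + 1, LKO minus CON, as deposited (x axis), for the 10 members (red) and for the genes tested in 13 of the 14 other cytoskeleton lists (grey), by list (y axis). Black bars are list medians and the dashed line is the median of all genes tested, -0.23. The point at -2.52 is Ssh2. Crosslinking and adhesion genes all lie below 0 on this scale, where 28.4% of all genes tested lie above 0.

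Cytoplasmic actins and thymosins are expressed in all liver cells and strongly in immune, endothelial and stellate cells, and in bulk liver a different number of such cells and a different amount of RNA per cell cannot be told apart. The hepatocyte markers were abundant in every library, with 8 of 8 tested, and summed to 44706 to 53443 FPKM in LKO and 49647 to 72052 FPKM in CON. The 2 most abundant, Alb and Apoa1, had log2 fold changes of -0.70 and 0.72. Of the 8, 7 were below 0, with a median of -0.60, beside -0.23 for all genes. Under median-ratio scaling these medians were -0.30 and 0.01. The Kupffer cell and macrophage markers (11 of 11 tested) summed to 184, 358 and 304 FPKM in LKO libraries 1, 2 and 3, against 305, 322 and 229 FPKM in CON libraries 1, 2 and 3. The leukocyte markers (8 of 10 tested) summed to 47.7, 81.4 and 63.8 FPKM in the LKO libraries, against 64.5, 69.4 and 51.9 FPKM in the CON libraries. LKO 2, the library with the most Tmsb4x and Tmsb10, had the highest sum of both lists, and LKO 1, with the second-highest Tmsb10, the lowest. LKO 2 also had the highest share of FPKM from mitochondrial genes, 10.1%, against 3.88% to 6.18% in the other libraries, and the part of this in the thymosin values was not tested.

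The endothelial markers (8 of 8 tested) summed to 65.5 to 96.95 FPKM in LKO and 47.7 to 133 FPKM in CON, and the stellate cell markers (7 of 8 tested) to 81.8 to 119.9 FPKM in LKO and 84.9 to 91.9 FPKM in CON. The cholangiocyte markers (3 of 6 tested) summed to 34.1 to 74.98 FPKM in LKO and 29.4 to 51.5 FPKM in CON, mostly from Spp1. The erythroid markers (5 of 5 tested) summed to 145 to 335 FPKM in LKO and 92.1 to 609.6 FPKM in CON. The mesothelial markers were at or below 0.98 FPKM in sum, Upk3b being listed at 0 in LKO 2 and CON 3 and Upk1b in LKO 1 and CON 2. The sums overlapped between the groups in all 8 lists, and none of their 50 tested genes passed in limma over all genes, with 2 (4%) higher and 3 (6%) lower at an unadjusted p under 0.05, beside 3.25% and 18.9% of all genes. The part of other cell types in the values of the cytoskeleton genes was not tested. Of the 52 markers of cell types other than hepatocytes, Cd52, Cd3e, Krt7 and Alas2 were above every CON library in every LKO library, and Ptprc was below. Of all genes tested, 3.92% were above and 24.3% below in this way. Cd3e and Krt7, at or below 0.56 FPKM in every library, did not reach the filter and were not tested. Cd52, a leukocyte marker, was at 18.79, 27.25 and 18.16 FPKM in the LKO libraries, against 15.54, 17.36 and 11.83 FPKM in the CON libraries. Its log2 fold change of 0.49 was the highest of the 8 tested leukocyte markers. Of these, 2 were above 0 and 6 below, down to -0.86 for S100a9, beside 28.4% of all genes above 0.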

How the data were processed

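Liver RNA of 6 libraries (3 LKO, 3 CON) was sequenced by the authors on Illumina libraries, per the labels' protocols. The matrix deposited by the authors holds FPKM for each gene and a gene length, made with HISAT2, StringTie and the build mm9, per the submitters' processing notes. The sources used here give no versions, annotation or strand setting. The length in bases is deposited as another column of the file, on no scale of expression. Of 56536 lines, 2 held no values. The lowest value above 0 was 0.01, the rounding step, in every library, so reads were not recovered and no count model was used.

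Genes whose mean FPKM reached 1 (11104) were tested on log2(FPKM + 1) with limma 3.58.1 in R 4.3.3, two-sided, with group as the term, a mean-variance trend and Benjamini-Hochberg adjustment at 0.05. SE is moderated. The steps were tested on simulated data. The simulation gave each gene independent noise, with no length trend and no difference in scale between libraries, so it does not cover these. Members and lists were chosen with earlier results of these data known. The text names all 10 members, Cd36, up to 3 genes of each related list with the smallest p, genes among the 5 most like Actb, and marker genes, and 1 of these genes and 1 list are not reported here. Protein sequences were not used here. Coding identities, which replaced the protein comparison after the data were seen, came from GENCODE M21 transcripts aligned with Biopython 1.88.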

Additional observations from a re-analysis of the deposited data

How the results depend on the processing

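The count of genes called lower over all genes was 1, and it was 0 with a pseudocount of 0.1, with no filter, with a filter at a mean FPKM of 5, with the length trend removed and with the replicate block, and 2 with equal sums of FPKM. Leaving out 1 library in turn gave 0 to 2115 lower and 0 to 511 higher genes, the highest without LKO 3. Called genes of the other cytoskeleton lists then ranged from 0 to 39. The median of the 10 genes minus that of all genes, 0.47, was 0.27 with no filter, 0.29 with the length trend removed, and 0.31 to 0.59 with 1 library left out. Cd36, at -2.50, ranged from -2.03 to -2.98 with 1 library left out and passed only without LKO 3 (adjusted p = 0.0165; the range over all alternatives was 0.0165 to 0.486). Uncalled genes changed sign: Tcp1 to 0.11 under median-ratio scaling and 0.10 with the length trend removed, Tuba4a, Tubb5 and Mrtfa to -0.13, -0.22 and -0.045 under equal sums. With 1 library left out, Tubb5 ranged from -0.067 to 0.18 and Mrtfa from -0.070 to 0.25. The share of promoter windows with a TATA box was 13.6% as TATAAA and 24.9% as TATAA. The causes were not tested. No label pairs the libraries by number, and correlations of so few libraries cannot settle it. Deviations of same-numbered libraries correlated at -0.05, 0.17 and 0.07 over genes. LKO 2 and LKO 3 correlated best with their own number and LKO 1 with CON 2. The block left 0 genes called lower. At an unadjusted p under 0.05 (limma) it gave 385 higher and 2234 lower genes, beside 361 and 2099 without it. Depth is unknown, so its limits could not be measured.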

Other observations

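Intermediate filaments, the third filament system of the hepatocyte, were measured in the same libraries. Krt8 and Krt18 encode the keratin pair of simple epithelia. Krt18 was at 159.73, 142.31 and 158.81 FPKM in LKO libraries 1, 2 and 3, against 105.51, 99.46 and 127.30 FPKM in CON libraries 1, 2 and 3, with no overlap between the groups (log2 fold change 0.47, SE 0.17, adjusted p = 0.197, limma). Its partner Krt8 was at 74.65, 65.74 and 114.46 FPKM in the LKO libraries, against 116.45, 100.78 and 117.28 FPKM in the CON libraries, with LKO 3 inside the CON range (log2 fold change -0.43, adjusted p = 0.294, limma). The nuclear lamin gene Lmnb2 was at 1.22, 1.2 and 1.39 FPKM in the LKO libraries, against 2.37, 1.54 and 1.84 FPKM in the CON libraries (log2 fold change -0.35, adjusted p = 0.273, limma). None of the 5 tested genes of this list passed over all genes, and 1 was higher and 0 were lower at an unadjusted p under 0.05, beside 3.25% and 18.9% of all genes tested. The difference between Krt18 and Krt8 was not tested.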
